A study of Mus musculus with 217 samples.

Results

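The nutrient and hormone carriers of the blood-brain barrier were followed as 8 named genes of the 52550 in the count tables, 394 of which are solute carrier genes by symbol. They are Slc2a1, Slc16a1, Slc16a4, Slco1c1, Slco1a4, Slc22a8, Slc19a3 and Mfsd2a, chosen by name. The endothelial cells (ECs) of brain vessels are joined by tight junctions, so that water-soluble nutrients and hormones reach the brain mainly through carriers in the EC membrane. Slc2a1 (GLUT1) carries glucose, Slc16a1 (MCT1) carries lactate and ketone bodies together with protons, and Slc16a4 is a member of the same monocarboxylate family whose cargo is less well known. Slco1c1 carries thyroxine into the brain, Slco1a4 carries organic anions including bile acids and hormone conjugates, and Slc22a8 (OAT3) exchanges organic anions, mainly out of the brain. Slc19a3 carries thiamine, and Mfsd2a carries the omega-3 fatty acid DHA as a lysolipid and also holds down transport in vesicles across the cell. Several of these genes are also known outside brain ECs, such as Slc2a1 and Slco1c1 in astrocytes, and Slc22a8 in the choroid plexus and the membranes around the brain.

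The libraries came from adult RiboTag EC mice (Cdh5CreERT2/+; Rpl22HA/+, strain C57BL/6J), in which tamoxifen turns on a Cre driven by the EC promoter Cdh5, and Cre puts an HA tag on the ribosomal protein Rpl22. Ribosomes with their RNA were pulled from homogenates of whole brain, lung and heart with an antibody against HA, so the RNA is that bound to ribosomes (the translatome) of ECs of every vessel type and membrane of the organ. All mice carried the same alleles and received tamoxifen. Mice labelled 0 hr were controls without lipopolysaccharide (LPS, a bacterial endotoxin), and the study's methods give its controls as injected with PBS. The others were killed 6, 24, 48, 72 or 168 hr after 10 mg per kg of LPS into the peritoneum. The carriers were compared between the 3 tissues at 0 hr, between each time after LPS and 0 hr within a tissue, and between tissues in their response.

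After the runs of a library were summed, 80 of 98 libraries were kept: 28 of brain, 28 of heart and 24 of lung, with 2 to 6 per tissue and time. The 18 others had less than 3% of their reads on genes. Kept libraries held 7226796 to 32891759 counts on genes in brain, 8136031 to 33050750 in heart and 284457 to 43417945 in lung, so lung levels are the least precise. The file names carry 4 patterns, here called library series 1 to 4; series 4 has no library at 0 or 6 hr, and 168 hr has only series 1 and 4. The file names point to 29 mice, 23 of them with all 3 tissues. The library labelled 6 hr of series 1 went against its label in brain and heart, from what the names give as a single mouse. Its brain library had 368 CPM (counts per 1000000 on genes) of Lcn2, a gene that LPS induces, against 5796 to 9019 in the other 6 hr libraries and 7.05 to 45.1 at 0 hr, and the heart library had 55.7 CPM against 2490 to 5670. The lung library of that mouse, the shallowest kept, had 17.6 CPM of Lcn2, within the 6.08 to 52.4 CPM of lung at 0 hr, yet its 12 genes of the acute LPS response summed to 5695 CPM, near the 5783 to 8781 CPM of the other lung libraries of 6 hr and above the 2269.8 to 3809.8 CPM of 0 hr. Calls at 6 hr are therefore given with and without this mouse. Brain libraries at 48 hr also spanned 434 to 31147 CPM of Lcn2. In brain libraries at 0 hr, 20 pan-EC markers summed to 3769 to 7637 CPM and were called lower than in the other tissues for 19 of 20, while neuron markers summed to 2240 to 7769 CPM, oligodendrocyte markers to 2450.5 to 7691 CPM, astrocyte markers to 2498 to 7593 CPM, choroid plexus markers to 608 to 1595 CPM, pericyte and mural markers to 1766 to 4565 CPM and markers of fibroblasts and brain membranes to 20563 to 84329 CPM, with every marker of these lists detected. What part RNA of such cells has in the carrier levels was not tested, and in bulk samples fewer cells of a type and less RNA per cell cannot be told apart.

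All 8 carriers were higher in brain than in lung and heart libraries at 0 hr. Per length of transcript, Slc2a1 was the most abundant in brain, and Slc19a3 and Slc16a4 were the least. The excess over the mean of the other tissues ran from 8.42-fold for Slc16a1 to 1656-fold for Slco1c1, with Slc22a8 past that range because no lung library had a count of it. Outside the brain, Slc16a1 and Slc2a1 were the best measured, Slc16a4 and Slco1a4 were at 4.2 to 12.5 CPM in heart and near 0 in lung, and Mfsd2a was at 0.714 to 6.27 CPM in lung and near 0 in heart.

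The glucose carrier Slc2a1 had 2766, 2596, 1356, 1610 and 1329 CPM in the 5 brain libraries, 32.4, 20.9, 24.9, 18.9 and 19.2 in the 5 heart libraries and 7.09, 3.41, 2.53 and 14.0 in the 4 lung libraries. The brain libraries stood apart from all others, and those of heart lay above those of lung. Its log2 fold change, brain against the mean of the others, was 6.98 ± 0.27 (adjusted p = 2.08e-11, edgeR's quasi-likelihood test, as for every adjusted p here). The lactate carrier Slc16a1 had 340.4, 334, 177, 252 and 260.5 CPM in brain, 32.1, 37.7, 36.9, 30.8 and 44.5 in heart and 26.5, 16.6, 17.0 and 5.56 in lung, a brain excess of 3.07 ± 0.30 on the log2 scale (adjusted p = 3.55e-07). The heart and lung ranges of Slc16a1 did not meet, yet the lung library of 26.5 CPM came close to the lowest heart library of 30.8 CPM. Slc16a4 had 72.5, 85.7, 28.1, 36.9 and 42.3 CPM in brain and 8.48, 10.8, 9.70, 11.2 and 9.00 in heart, and 1 count in all 4 lung libraries together. Brain exceeded heart by 2.14 ± 0.29 on the log2 scale (adjusted p = 1.36e-05), the smallest excess over heart among the members.

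Slco1c1, the thyroxine carrier, had 640.5, 925, 393, 474 and 636 CPM in brain, and at most 0.511 CPM in any heart library and 0.467 CPM in any lung library. Its log2 fold change was 10.69 ± 0.44 (adjusted p = 3.62e-11). Slco1a4 had 812, 1109, 304, 476 and 725 CPM in brain, 4.70, 4.2, 6.74, 12.5 and 8.55 in heart and 0, 0.14, 0.0461 and 0.409 in lung. Slco1a4 was thus present in heart and nearly absent from lung, and its brain excess was 8.93 ± 0.45 (adjusted p = 2.35e-10). The mouse has near copies of Slco1a4 (Slco1a1, Slco1a5, Slco1a6) with which the counting could have shared or lost reads. Slc22a8 had 836, 564, 284, 457 and 283 CPM in brain, 0.204, 0, 0.315, 0.263 and 0.161 in heart and 0 counts in all 4 lung libraries. Taken against 3 counts over the lung group, the floor used here, brain was at least 13038-fold higher than lung, and brain exceeded heart by 10.80 ± 0.53 on the log2 scale (adjusted p = 5.77e-09). Slco1c1 and Slc22a8 passed the low-count filter through their brain levels alone, so their p-values at 0 hr are not read as tests.

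Slc19a3, the thiamine carrier, had 75.4, 84.6, 27.4, 46.1 and 41.6 CPM in brain and at most 0.675 CPM in heart and 0.327 CPM in lung. The brain libraries of series 1 were the highest of it, and none came near the other tissues (log2 fold change 7.66 ± 0.44, adjusted p = 1.03e-09). Slc19a3 too passed the low-count filter through its brain levels alone, so this p-value is not read as a test. Mfsd2a had 119, 192, 117, 143 and 134 CPM in brain, 6.27, 2.2, 0.714 and 1.47 in lung and 0.102, 0.195, 0.0788, 0.0375 and 0.0403 in heart. It was the only member with more in lung than in heart, and brain exceeded the others by 7.98 ± 0.40 (adjusted p = 2.73e-10).

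Of the 8 carriers, 8 were called higher in brain against the mean of the other tissues, where 35.1% of the 17730 genes tested were, 8 against lung alone (37.9% of genes) and 8 against heart alone (32.0% of genes). Each count stayed at 8 within library series 1 alone and within series 2 alone. Of the 8, Slco1c1, Slc22a8 and Slc19a3 passed the low-count filter through their brain levels alone. A call of higher in brain was thus all but set for them, and it is not read as a test. Lung differed from heart in 5 members, where 61.1% of genes differed. Slc2a1 (log2 fold change −1.68 ± 0.30, adjusted p = 0.000241), Slco1a4 (−5.23 ± 0.64, adjusted p = 9.38e-06), and Slc16a4 were lower in lung, and Mfsd2a was higher (5.12 ± 0.60, adjusted p = 6.62e-06). Slc16a1 (−0.65 ± 0.37) did not pass. The fifth call was of Slc22a8, which had 0 counts in lung and 21 counts over the 5 heart libraries. Slco1c1, with 13 counts over the lung and 37 over the heart libraries, and Slc19a3, with 8 and 32, were not called. These 3 entered the fit through their brain levels, so their differences between lung and heart are not read here. A fold change is fitted with library series as a covariate and so differs from the ratio of mean CPM. The p-values measure the spread between libraries, which within a tissue are taken as mice. Tissues share mice, the 14 libraries of 0 hr being from 6 mice by the file names, and with the mouse as a block each of the brain counts was also 8.

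**Figure D1:**
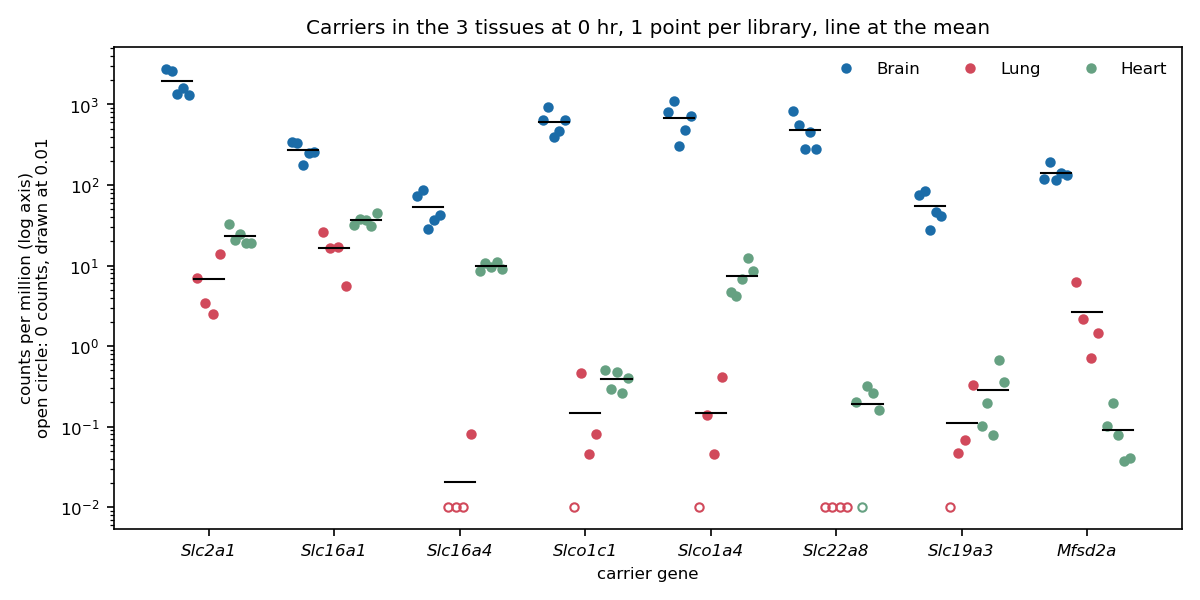
Level at 0 hr in CPM (log axis) of the 8 carriers in brain, lung and heart, with 1 point per library, a line at the group mean, and open circles at 0.01 for libraries with 0 counts. Every brain point of every gene lies above every lung and heart point, from 27.4 CPM for the lowest brain library of Slc19a3 to 2766 CPM for the highest of Slc2a1.

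Levels of different genes were compared per kilobase of exon. In brain Slc2a1 was at 551 ± 198 CPM per kb (SD, n = 5), above every other carrier in 5 of 5 libraries. Slc22a8 (124 ± 58.8), Slco1c1 (118 ± 39.4) and Slco1a4 (107 ± 48.5) followed, then Mfsd2a (62.6 ± 13.6) and Slc16a1 (61.7 ± 15.2), all in CPM per kb. Among these 5 genes each range overlapped with that of the next in order. Slc19a3 (17.9 ± 7.84 CPM per kb) and Slc16a4 (13.7 ± 6.37 CPM per kb) came last, below Slc16a1 in every library, and their ranges overlapped, though Slc19a3 was above Slc16a4 in 5 of 5 libraries. In heart the order per kb began with Slc16a1 (8.23 ± 1.22) and Slc2a1 (6.63 ± 1.61), whose ranges overlapped, then Slc16a4 (2.54 ± 0.302) and Slco1a4 (1.14 ± 0.524), with the others under 0.1 CPM per kb. In lung it was Slc16a1 (3.70 ± 1.93), Slc2a1 (1.93 ± 1.49) and Mfsd2a (1.18 ± 1.10), with overlapping ranges, and the others under 0.04 CPM per kb. Only Slc2a1 shares exon positions with a gene on the opposite strand (Gm12868), and whether the reads were counted by strand is not given in the sources used here.

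The genes lie on 5 chromosomes of mm10. Slc16a1 (chr3:104638668-104658462) and Slc16a4 (chr3:107291230-107312115) are on the + strand of chromosome 3, and Slco1c1 (chr6:141524368-141570177, + strand) and Slco1a4 (chr6:141805440-141856199, − strand) are near each other on chromosome 6. Slc2a1 (chr4:119108711-119137983, + strand) and Mfsd2a (chr4:122946850-122961188, − strand) are both on chromosome 4, Slc22a8 (chr19:8591254-8611835, + strand) is on chromosome 19, and Slc19a3 (chr1:83012523-83038448, − strand) on chromosome 1. Since several members fell together after LPS, the 250 bases before the RefSeq start of each were searched on both strands for short core motifs. The motifs were CTTTGA (TCF/LEF, the factors of Wnt signalling), ACAAAG (SOX factors), ACGTG and GCGTG (hypoxia response), GGGNNTTCC (NF-kappaB) and CACGTG (E-box, which contains ACGTG). All 8 members matched a RefSeq promoter. Those of 5 members are printed 5′ to 3′ on the gene's strand, from GRCm38.p6 as given by RefSeq, with motif matches in capitals: the 3 whose brain levels were most alike (Slco1c1, Slc16a4 and Slc19a3), Mfsd2a, and Slc16a1 as the most GC-rich.

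Slco1c1, chr6:141524104-141524353, + strand: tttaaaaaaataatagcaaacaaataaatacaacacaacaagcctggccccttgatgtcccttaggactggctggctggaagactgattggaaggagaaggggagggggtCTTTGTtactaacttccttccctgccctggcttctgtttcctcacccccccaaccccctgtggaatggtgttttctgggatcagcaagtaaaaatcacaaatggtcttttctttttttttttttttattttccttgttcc
Slc16a4, chr3:107290980-107291229, + strand: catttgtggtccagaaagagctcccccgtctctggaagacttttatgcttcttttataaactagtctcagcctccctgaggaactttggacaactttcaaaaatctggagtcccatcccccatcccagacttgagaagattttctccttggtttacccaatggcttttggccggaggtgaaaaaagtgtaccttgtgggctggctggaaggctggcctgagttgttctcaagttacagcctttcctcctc
Slc19a3, chr1:83038449-83038698, − strand: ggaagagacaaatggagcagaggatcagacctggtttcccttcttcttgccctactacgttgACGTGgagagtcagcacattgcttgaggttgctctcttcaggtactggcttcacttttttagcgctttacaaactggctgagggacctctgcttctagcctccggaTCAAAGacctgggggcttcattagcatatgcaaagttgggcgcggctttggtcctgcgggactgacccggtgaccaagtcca
Mfsd2a, chr4:122961189-122961438, − strand: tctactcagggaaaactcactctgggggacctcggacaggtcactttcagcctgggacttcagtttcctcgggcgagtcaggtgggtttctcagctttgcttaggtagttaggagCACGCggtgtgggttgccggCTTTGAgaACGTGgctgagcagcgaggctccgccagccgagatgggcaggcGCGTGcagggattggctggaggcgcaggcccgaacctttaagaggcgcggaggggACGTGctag
Slc16a1, chr3:104638414-104638663, + strand: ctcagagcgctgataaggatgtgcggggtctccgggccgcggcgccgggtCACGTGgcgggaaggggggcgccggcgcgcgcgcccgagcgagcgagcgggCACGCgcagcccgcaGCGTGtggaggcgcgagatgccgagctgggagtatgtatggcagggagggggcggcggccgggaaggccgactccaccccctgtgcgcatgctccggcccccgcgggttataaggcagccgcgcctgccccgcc

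The CTTTGA core is in Slc19a3, 82 bases before the start and on the opposite strand, and in Mfsd2a, 115 bases before the start, and in 13.8% of all 32851 promoters. ACAAAG is in Slco1c1 (140 bases before the start, opposite strand) and Slc22a8 (219 bases, opposite strand), and in 16.5% of promoters. ACGTG is in Slc2a1, Slc16a1, Slc19a3 and Mfsd2a (16.6% of promoters), and GCGTG in Slc2a1, Slc16a1 and Mfsd2a (28.2%). CACGTG is in Slc16a1 alone (6.02% of promoters) and GGGNNTTCC in no member (4.98%). Slc16a4 and Slco1a4 hold none of these letters. GC content ran from 39.2% in Slco1a4 and 42.8% in Slco1c1 to 76.4% in Slc16a1, with a median of 52.4% over all promoters, and CpG pairs from 0 in Slco1c1 and Slco1a4 to 37 in Slc16a1, with a median of 6. A match is a description of these letters and not of binding.

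After LPS, 5 of the 8 carriers fell in brain libraries, and none was called higher at any time. Mfsd2a fell at 6, 24, 48 and 72 hr, Slc19a3 at 6, 24 and 48 hr, Slc22a8 at 24 and 48 hr, and Slco1c1 and Slc16a4 at 24 hr. Slc16a1 and Slco1a4 passed, as lower, only at 6 hr and only without the series 1 library labelled 6 hr, and Slc2a1 passed at no time. With all libraries the largest fall was of Slco1c1 at 24 hr, 18.1-fold, and without the series 1 library labelled 6 hr Slc16a4 fell 18.3-fold at 6 hr. At 168 hr every carrier overlapped its 0 hr levels and none was called. Each time was compared with the same 5 libraries of 0 hr, so the 5 comparisons are not independent.

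The count of carriers called lower was 2 of 8 at 6 hr (2.23% of the 19234 genes tested were called lower), 5 at 24 hr (4.66%), 3 at 48 hr (6.12%), 1 of 8 at 72 hr (0.546%) and 0 at 168 hr (0%). Without the series 1 library labelled 6 hr, 7 of 8 were called lower at 6 hr, all but Slc2a1, where 6.71% of genes were lower and 7.63% higher. Called higher were 0 of 8 at each time, against 4.21%, 6.52%, 8.11%, 2.98% and 0% of genes at 6, 24, 48, 72 and 168 hr. DESeq2 and limma-voom also called 0 higher, and an unadjusted p under 0.05 for a higher level was seen for Slc16a1 at 72 hr (p = 0.00992) and Slc19a3 at 168 hr (p = 0.0440) in edgeR's test. The median log2 fold change over the 8 carriers was −1.51, −2.20, −1.08, 0.05 and 0.62 at 6, 24, 48, 72 and 168 hr in turn, where that over all genes lay between −0.04 and 0.09. Without the series 1 library labelled 6 hr, the median at 6 hr was −2.28 over the 8 carriers and −0.02 over all genes.

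**Figure D2:**
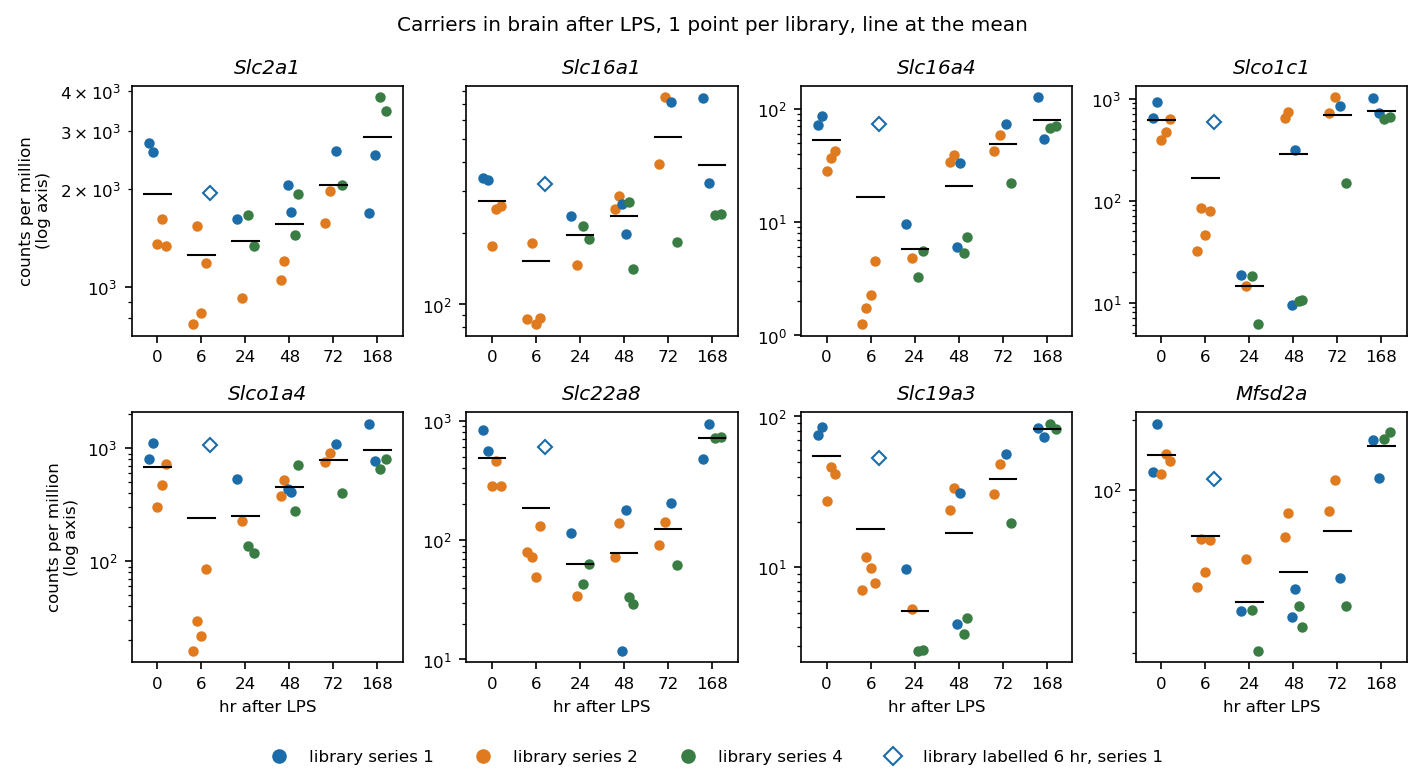
CPM (log axis) of the 8 carriers in brain libraries by time after LPS (hr), with points coloured by library series and an open diamond for the series 1 library labelled 6 hr. All 4 libraries at 24 hr lie below all 5 at 0 hr for Slc16a4, Slco1c1, Slc22a8, Slc19a3 and Mfsd2a, and the diamond lies within the 0 hr range for 7 of the 8 genes, all but Mfsd2a at 111 CPM.

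Markers of other cells moved with time too. The pan-EC markers summed to 3769 to 7637 CPM at 0 hr, 2261 to 4896 at 6 hr, 3493 to 4794 at 24 hr, 4858 to 8084 at 48 hr, 4586 to 8815 at 72 hr and 5272 to 7210.3 at 168 hr. Of these 20 markers, 9 were called lower and 2 higher at 6 hr, 3 and 1 at 24 hr, 1 and 5 at 48 hr, 0 and 4 at 72 hr, and none at 168 hr; without the series 1 library labelled 6 hr, 9 were lower and 4 higher at 6 hr. When libraries were scaled to these markers in place of all genes, the carriers called lower numbered 0, 5, 3 and 2 of 8 at 6, 24, 48 and 72 hr, where 0.681%, 1.72%, 4.80% and 1.28% of all genes were lower, and 19.4% were higher at 6 hr. This scaling was fitted with the series 1 library labelled 6 hr only. As a share of these markers, Slco1c1 had a median of 1.90% at 6 hr (1.41% to 12.1%), against 10.3% to 13.1% at 0 hr. Slco1a4 had 0.847% (0.668% to 21.8%) against 8.06% to 16.6%. The series 1 library gave both highest values. The median of Slc2a1 was 34.6% at 6 hr and 35.0% at 0 hr. The 11 pericyte and mural markers, all detected, summed to 1766 to 4565 CPM at 0 hr, 739 to 5079 at 6 hr, 845 to 1298 at 24 hr, 422 to 3455 at 48 hr, 965 to 2265 at 72 hr and 965 to 3285 at 168 hr. Their sums at 24 hr lay below every 0 hr library, as those of 5 carriers did, and overlapped with 0 hr at the other times, while single markers were called lower for 1 of 11 at 48 hr and for none at the other times by edgeR with all libraries, and for 1 of 11 at 6 hr without the series 1 library (median log2 fold change −0.69). The 11 markers of fibroblasts and brain membranes, all detected, summed to 20563 to 84329 CPM at 0 hr, 13270 to 31614 in series 2 and 65958 in series 1 at 6 hr, 19061 to 44284 at 24 hr, 8881 to 35442 at 48 hr, 14257 to 26358 at 72 hr and 25189 to 90454 at 168 hr. Ptgds, a prostaglandin synthase of the membranes, made up 73.8% to 93.5% of this sum, and the other 10 markers had medians of 4062, 1675, 6589, 5447, 3300 and 8312 CPM at the 6 times in order. Of the 11, 0, 1, 4, 1 and 0 were called lower at the 5 times after LPS in order, and 0, 2, 1, 0 and 0 higher. Without the series 1 library labelled 6 hr, where 7 of 8 carriers were called lower, 3 of these 11 markers were lower at 6 hr and none higher (median log2 fold change −0.73). The part of these cells in the carrier levels was not tested.

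Slc2a1 kept most of its level. At 6 hr it had 765, 1536, 832 and 1182 CPM in library series 2 and 1934 in series 1, against 1329 to 2766 at 0 hr. At 24 hr Slc2a1 had 1614, 926, 1661 and 1333 CPM, and at 48 hr 1048 at the lowest, 1567 at the median and 2053 CPM at the highest. Below the lowest 0 hr library lay 3 libraries of 6 hr, 1 of 24 hr and 2 of 48 hr, and the groups overlapped. At 72 hr Slc2a1 had 1569.8, 1964, 2604 and 2056 CPM, inside the 0 hr range, and at 168 hr 1684, 2541, 3816 and 3453, of which the 2 from series 4 lay above it. The log2 fold changes were −0.41 ± 0.23 at 6 hr (adjusted p = 0.368), −0.65 ± 0.26 at 24 hr (adjusted p = 0.0959), −0.52 ± 0.22 at 48 hr (adjusted p = 0.113), −0.04 ± 0.24 at 72 hr and 0.15 ± 0.27 at 168 hr, by edgeR. Slc2a1 at 6 hr differed by −0.42 ± 0.25 on the log2 scale without the series 1 library (adjusted p = 0.331) and by −0.29 ± 0.23 within series 2 alone (adjusted p = 0.518). As a share of the summed pan-EC markers Slc2a1 was 26.0% to 56.7% at 0 hr, 32.4% to 43.0% at 6 hr and 26.5% to 36.3% at 24 hr.

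Slc16a1 had its lowest levels at 6 hr and its highest at 72 hr. At 0 hr Slc16a1 had 177 to 340.4 CPM, and at 6 hr 87.2, 182, 82.3 and 87.4 in series 2 and 324 in series 1. Of the series 2 libraries, 3 lay below every 0 hr library. Slc16a1 at 6 hr differed by −1.07 ± 0.33 on the log2 scale without the series 1 library (adjusted p = 0.0293) and by −0.95 ± 0.29 within series 2 alone (adjusted p = 0.0559), and with all libraries by −0.75 ± 0.31 (adjusted p = 0.179). At 24 hr Slc16a1 had 236, 147, 215 and 188 CPM, at 48 hr 141 at the lowest, 259 at the median and 288 CPM at the highest, with log2 fold changes of −0.14 ± 0.37 and −0.09 ± 0.31. At 72 hr it had 393, 749, 714 and 184 CPM and at 168 hr 742, 326, 238 and 242. At 72 hr 3 of 4 libraries lay above the 0 hr range and the series 4 library did not, and the log2 fold change of 0.92 ± 0.33 did not pass (adjusted p = 0.139; 0.0432 without that series 4 library). Within series 1 and series 2 alone the 72 hr difference was 1.01 ± 0.49, from 1 library of 72 hr, and 1.30 ± 0.34. The pan-EC share of Slc16a1 was 4.38% to 6.97% at 0 hr, 3.18% to 6.62% at 6 hr and 2.09% to 12.1% at 72 hr.

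Its relative Slc16a4 fell much further. At 0 hr Slc16a4 had 28.1 to 85.7 CPM, at 6 hr 1.25, 1.75, 2.27 and 4.53 in series 2 and 74.2 in series 1, and at 24 hr 9.58, 4.81, 3.31 and 5.60. The series 2 libraries of 6 hr and all 4 of 24 hr lay below every 0 hr library. Slc16a4 at 6 hr differed by −4.19 ± 0.54 on the log2 scale without the series 1 library (adjusted p = 4.12e-06) and by −3.71 ± 0.36 within series 2 alone (adjusted p = 7.31e-05), and with all libraries by −2.08 ± 0.70 (adjusted p = 0.0794). At 24 hr the log2 fold change of Slc16a4 was −2.63 ± 0.83 (adjusted p = 0.0430), within series 1 −2.93 ± 1.01 and within series 2 −2.76 ± 0.61, each with 1 library of 24 hr, so that the other times give the spread. This call is close to the threshold, and leaving out any 1 of the 9 libraries compared took the adjusted p to 0.0504 to 0.128. At 48 hr Slc16a4 had 33.9 and 39.5 CPM in series 2, 6.00 and 33.3 in series 1 and 5.31 and 7.34 in series 4. Of these 6, 3 were under 10 CPM and 3 inside the 0 hr range (−1.06 ± 0.64, adjusted p = 0.262), and within series 1 and series 2 the difference was −1.95 ± 0.72 and −0.13 ± 0.40. By 72 hr (42.2, 58.9, 73.9 and 22.2 CPM) and 168 hr (126, 53.8, 67.7 and 70.8 CPM) Slc16a4 overlapped the 0 hr range.

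Slco1c1 gave the deepest fall with all libraries. At 0 hr Slco1c1 had 640.5, 925, 393, 474 and 636 CPM, and at 6 hr 32.0, 84.4, 46.2 and 79.6 in series 2 and 590.4 in series 1. At 24 hr Slco1c1 had 18.7, 14.6, 18.4 and 6.09 CPM, all below every 0 hr and every 6 hr library. Slco1c1 at 6 hr differed by −3.66 ± 0.88 on the log2 scale without the series 1 library (adjusted p = 0.00470) and by −2.92 ± 0.30 within series 2 alone (adjusted p = 0.000110), and with all libraries by −1.92 ± 0.84 (adjusted p = 0.211). At 24 hr the log2 fold change of Slco1c1 was −4.18 ± 1.18 (adjusted p = 0.0236), within series 1 −5.27 ± 1.89 and within series 2 −4.95 ± 0.62, again with 1 library of 24 hr in each. The 24 hr call of Slco1c1 was lost without replicate 1 or 2 of 24 hr (adjusted p up to 0.0995). At 48 hr Slco1c1 split by library, with 649 and 740.1 CPM in series 2, 9.47 and 310.3 in series 1 and 10.4 and 10.6 in series 4. The same libraries had Lcn2 levels of 1311 and 434, 31147 and 10680, and 26377 and 29042 CPM in that order. The 48 hr log2 fold change of Slco1c1 was −1.10 ± 0.79 over all libraries, −2.24 ± 1.20 within series 1 and 0.31 ± 0.35 within series 2, and it did not pass (adjusted p = 0.355). At 72 hr it had 719.9, 1028, 837 and 150.1 CPM and at 168 hr 1012, 729, 630.5 and 659, with the series 4 library of 72 hr alone below the 0 hr range. As a share of summed pan-EC markers Slco1c1 went from 10.3% to 13.1% at 0 hr to 0.129% to 0.421% at 24 hr and 11.1% to 14.0% at 168 hr.

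Slco1a4 was at its lowest at 6 hr and not at 24 hr. At 0 hr Slco1a4 had 812, 1109, 304, 476 and 725 CPM, at 6 hr 16.1, 29.7, 21.8 and 86.2 in series 2 and 1069 in series 1, and at 24 hr 533, 228, 138 and 119. The 4 series 2 libraries of 6 hr lay below all others in time, while the series 1 library labelled 6 hr matched the high end of 0 hr. Slco1a4 at 6 hr differed by −3.74 ± 0.50 on the log2 scale without the series 1 library (adjusted p = 5.69e-06) and by −3.55 ± 0.52 within series 2 alone (adjusted p = 0.000988), and with all libraries by −2.05 ± 0.65 (adjusted p = 0.0591). At 24 hr the log2 fold change of Slco1a4 was −1.38 ± 0.69 (adjusted p = 0.197), with 3 of 4 libraries under the 0 hr range. Later Slco1a4 had 279 at the lowest, 428 at the median and 710.1 CPM at the highest at 48 hr, 761, 904, 1098 and 399.7 CPM at 72 hr and 1652, 769, 655 and 798 at 168 hr, overlapping 0 hr each time (log2 fold changes −0.38 ± 0.62, 0.40 ± 0.64 and 0.20 ± 0.73).

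Slc22a8, the organic anion exchanger, was slow to return. At 0 hr Slc22a8 had 836, 564, 284, 457 and 283 CPM, at 6 hr 79.1, 72.0, 49.5 and 132 in series 2 and 599 in series 1, and at 24 hr 115, 33.9, 43.3 and 62.9. At 48 hr it had 11.8 at the lowest, 52.9 at the median and 179 CPM at the highest, and at 72 hr 90.9, 143, 204 and 62.2 CPM. Every library of 24, 48 and 72 hr lay below every 0 hr library. Slc22a8 at 6 hr differed by −2.17 ± 0.55 on the log2 scale without the series 1 library (adjusted p = 0.00724) and by −1.91 ± 0.35 within series 2 alone (adjusted p = 0.00423), and with all libraries by −1.42 ± 0.53 (adjusted p = 0.120). The log2 fold change of Slc22a8 was −2.62 ± 0.66 at 24 hr (adjusted p = 0.0125; 0.0620 without replicate 2 of 24 hr) and −2.57 ± 0.52 at 48 hr (adjusted p = 0.00297). At 72 hr it was −1.87 ± 0.58 and did not pass (adjusted p = 0.0790). Within series 1 and series 2 the 48 hr difference was −2.83 ± 1.08 and −1.89 ± 0.45. At 168 hr Slc22a8 was back at 482, 944, 721 and 731 CPM. Slc22a6, a close relative that marks the membranes around the brain, had log2 fold changes of −1.70 ± 0.62 at 6 hr (adjusted p = 0.108; −2.42 ± 0.65 without the series 1 library, adjusted p = 0.0113), −2.67 ± 0.73 at 24 hr (adjusted p = 0.0209) and −2.42 ± 0.60 at 48 hr (adjusted p = 0.0104), and its part in the result for Slc22a8 was not tested.

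Slc19a3, the thiamine carrier, fell at 6, 24 and 48 hr. At 0 hr Slc19a3 had 75.4, 84.6, 27.4, 46.1 and 41.6 CPM, at 6 hr 7.12, 11.7, 9.93 and 7.89 in series 2 and 53.4 in series 1, and at 24 hr 9.80, 5.29, 2.79 and 2.82. The series 2 libraries of 6 hr and all of 24 hr lay below the 0 hr range. At 6 hr the log2 fold change of Slc19a3 was −1.59 ± 0.48 (adjusted p = 0.0461), a call kept in 2 of 10 fits that each left out 1 library. Slc19a3 at 6 hr differed by −2.40 ± 0.49 on the log2 scale without the series 1 library (adjusted p = 0.000997) and by −1.94 ± 0.24 within series 2 alone (adjusted p = 0.000301). At 24 hr it was −2.90 ± 0.59 (adjusted p = 0.00311), and the call held in 9 of 9 such fits. At 48 hr Slc19a3 had 24.1 and 33.8 CPM in series 2, 4.21 and 30.9 in series 1 and 3.63 and 4.58 in series 4. This is the split seen for Slc16a4 and Slco1c1 in the same libraries, and the log2 fold change was −1.55 ± 0.46 (adjusted p = 0.0272; within series 1 −2.13 ± 0.75, within series 2 −0.59 ± 0.29). The 48 hr call of Slc19a3 was lost without replicate 1, 2 or 4 of 0 hr or replicate 3 of 48 hr, with an adjusted p of at most 0.0631. At 72 hr it had 30.8, 48.1, 56.2 and 19.5 CPM and at 168 hr 83.3, 72.8, 89.5 and 83.2, overlapping 0 hr.

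Mfsd2a, the DHA carrier, was the member called at the most times. At 0 hr Mfsd2a had 119, 192, 117, 143 and 134 CPM, at 6 hr 38.2, 61.5, 44.4 and 60.6 in series 2 and 111 in series 1, and at 24 hr 30.2, 50.3, 30.5 and 20.3. At 48 hr it had 25.8 at the lowest, 34.7 at the median and 79.5 CPM at the highest, and at 72 hr 81.0, 111, 41.9 and 31.8 CPM. Every library from 6 to 72 hr lay below every 0 hr library, the only carrier for which this held at 6 hr. The log2 fold change was −1.14 ± 0.30 at 6 hr (adjusted p = 0.0177), −1.79 ± 0.35 at 24 hr (adjusted p = 0.00217), −1.61 ± 0.29 at 48 hr (adjusted p = 0.00123) and −1.16 ± 0.32 at 72 hr (adjusted p = 0.0442). Mfsd2a at 6 hr differed by −1.69 ± 0.28 on the log2 scale without the series 1 library (adjusted p = 8.75e-05) and by −1.23 ± 0.18 within series 2 alone (adjusted p = 0.00105). Within series 1 and series 2 alone, Mfsd2a differed by −2.25 ± 0.47 and −1.25 ± 0.30 at 24 hr, −2.15 ± 0.35 and −1.06 ± 0.23 at 48 hr and −1.96 ± 0.46 and −0.47 ± 0.22 at 72 hr, where each series had 1 library of 24 hr and series 1 had 1 of 72 hr. The calls at 24 and 48 hr held whichever library was left out. The 6 hr call was lost without replicate 2 of 0 hr or replicate 1 or 3 of 6 hr (adjusted p up to 0.0712), and the 72 hr call without replicate 1, 2 or 4 of 0 hr or replicate 1, 3 or 5 of 72 hr (up to 0.197). At 168 hr Mfsd2a had 164, 112, 165 and 178 CPM, with 1 library just under the 0 hr range. As a share of summed pan-EC markers Mfsd2a was 2.43% to 3.10% at 0 hr, 1.38% to 2.27% at 6 hr, 0.429% to 1.44% at 24 hr and 2.00% to 3.13% at 168 hr.

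**Figure D3:**
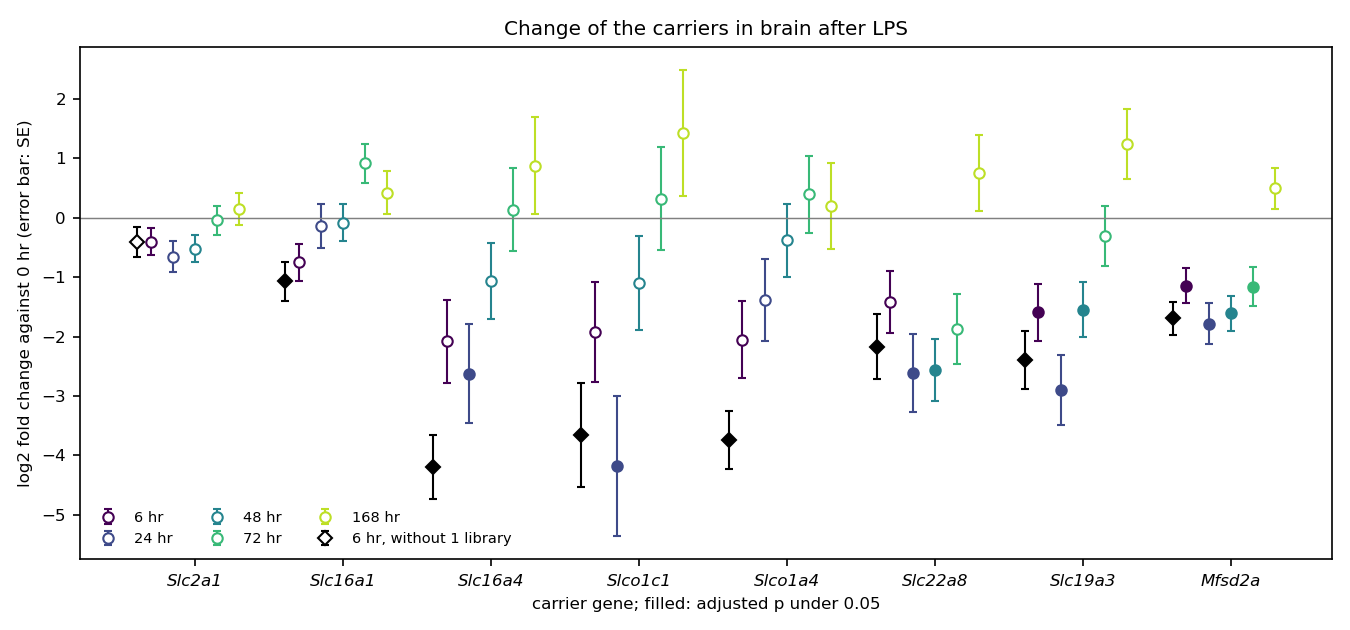
Log2 fold change against 0 hr (± SE, edgeR) of each carrier in brain at 6, 24, 48, 72 and 168 hr, filled where the adjusted p is under 0.05, with black diamonds for 6 hr without the series 1 library. Slc2a1 stays between −0.65 and 0.15, Slco1c1 reaches −4.18 at 24 hr, and the diamonds lie lower than the 6 hr points, by most for Slc16a4 (−4.19 against −2.08).

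At 168 hr most carriers were above their early levels. Against 6 hr, 7 of 8 were higher at 168 hr, where 3.67% of genes were, and against 24 hr 6 of 8, where 17.7% of genes were. Against 6 hr the log2 fold changes ran from 1.18 ± 0.37 for Slc16a1 (adjusted p = 0.0453) to 3.34 ± 1.04 for Slco1c1 (adjusted p = 0.0462), and Slc2a1 (0.56 ± 0.28) did not pass. With all libraries these calls were near the threshold, and those of Slc16a1, Slc16a4, Slco1c1, Slco1a4 and Slc22a8 were lost in 4 to 7 of the 9 fits that left out 1 library, where each library of 6 and 168 hr but replicate 6 of 6 hr took at least 1 call, with an adjusted p of up to 0.141 for Slc16a1. Without the series 1 library labelled 6 hr, the same 7 passed, with Slc16a4 the largest (5.30 ± 0.62). That fit leaves 6 and 168 hr with no library series in common, so they are joined only through the other times. Against 24 hr, Slco1c1 (5.61 ± 1.10), Slc19a3 (4.14 ± 0.61), Slc16a4 (3.51 ± 0.82), Slc22a8 (3.37 ± 0.64), Mfsd2a (2.29 ± 0.35) and Slc2a1 (0.80 ± 0.26) passed, while Slc16a1 and Slco1a4 did not, and the call of Slc2a1 was kept in 1 of 8 such fits (adjusted p up to 0.136). Against 0 hr, 0 of 8 passed at 168 hr, with an unadjusted p under 0.05 for Slc19a3 alone in edgeR and for 1 and 0 members in DESeq2 and limma-voom. The 168 hr levels share only library series 1 with 0 hr and 6 hr, and its only library of 6 hr is the one that went against its label.

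In heart the carriers moved in both directions. Slc2a1 rose at 6 and 24 hr, Slc16a1 rose at 6 hr, and Slc16a4 fell at 6, 24 and 48 hr. From a level near the limit of detection, Slco1c1 fell at 6 hr. Mfsd2a was called higher at 6 hr, but it passed the low-count filter through its 6 hr levels. Of the 7 carriers tested, 5 were called at 6 hr, where 42.8% of the 16024 genes were called, and 6 without the series 1 library (58.4% of 15990 genes), 2 at 24 hr (16.2%) and 1 at 48 hr (4.19%). None was called at 72 hr (0.275%) or 168 hr (0%), by edgeR, DESeq2 or limma-voom, and an unadjusted p under 0.05 was seen for 0 members at 72 hr and 1 at 168 hr with each tool. Slc22a8, at 0 to 1.11 CPM, was too low to be tested. The pan-EC markers in heart summed to 19166 to 21254 CPM at 0 hr, to 5709.7 to 9265 CPM in the series 2 libraries of 6 hr and 21331 CPM in that of series 1, to 13929 to 14688 CPM at 24 hr and 14626 to 21848 CPM at 48 hr, and at 6 hr without the series 1 library 17 of the 20 were called lower and 1 higher. Their part in the carrier changes in heart was not tested.

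In heart at 6 hr Slc2a1 had 35.1, 80.8, 33.0 and 80.7 CPM in series 2 and 32.2 in series 1, against 32.4, 20.9, 24.9, 18.9 and 19.2 at 0 hr. At 24 hr it had 117, 76.3, 277 and 297 CPM, every library above every 0 hr library, and at 48 hr 21.5 at the lowest, 74.9 at the median and 193 CPM at the highest. The 48 hr libraries spread from the 0 hr level to well above it, the series 4 libraries being highest. The log2 fold change of Slc2a1 was 1.74 ± 0.38 at 6 hr (adjusted p = 0.00122), 2.27 ± 0.41 at 24 hr (adjusted p = 0.00178) and 1.16 ± 0.38 at 48 hr (adjusted p = 0.0789). The 6 hr difference without the series 1 library was 2.07 ± 0.33 (adjusted p = 9.04e-06), within series 2 alone 1.86 ± 0.31, and within series 1, with the library that went against its label, 0.28 ± 0.48. Slc16a1 had 81.2, 51.9, 39.9, 33.4 and 33.0 CPM in heart at 6 hr against 30.8 to 44.5 at 0 hr. Its groups overlapped, with 2 of 5 libraries above the 0 hr range, and the log2 fold change of 0.72 ± 0.26 (adjusted p = 0.0276) lost its call without replicate 3 or 4 of 0 hr or replicate 1 or 2 of 6 hr, with an adjusted p of up to 0.151. It was 0.90 ± 0.26 without the series 1 library (adjusted p = 0.00445).

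Slc16a4 in heart had 8.48, 10.8, 9.70, 11.2 and 9.00 CPM at 0 hr, 0.674, 1.38, 0.653 and 1.02 in series 2 and 8.83 in series 1 at 6 hr, and 1.03, 0.785, 0.587 and 0.928 at 24 hr. At 48 hr it had 0.575 at the lowest, 1.81 at the median and 5.55 CPM at the highest, and all libraries of 24 and 48 hr lay below the 0 hr range. Log2 fold changes were −1.86 ± 0.53 at 6 hr (adjusted p = 0.00839), −2.97 ± 0.67 at 24 hr (adjusted p = 0.00669; 0.0504 without replicate 2 of 24 hr) and −1.82 ± 0.51 at 48 hr (adjusted p = 0.0404, a call kept in 2 of 11 fits that left out 1 library, with an adjusted p of up to 0.106), and −3.23 at 6 hr without the series 1 library. Slco1a4 in heart went from 4.70, 4.2, 6.74, 12.5 and 8.55 CPM at 0 hr to 0.0449, 0.125, 0.452 and 0.0887 in the series 2 libraries of 6 hr, which are 1, 3, 9 and 2 counts, while the series 1 library had 13.7. With that library the 6 hr log2 fold change was −1.53 ± 1.03 and did not pass (adjusted p = 0.231), and without it −5.38 ± 0.70 (adjusted p = 6.08e-07). At 24 hr Slco1a4 had 0.683, 0.619, 0.88 and 0.696 CPM, all below the 0 hr range, yet −2.40 ± 1.21 did not pass (adjusted p = 0.157).

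Mfsd2a in heart had 1 to 2 counts in each 0 hr library, and 1.66, 3.38, 3.42 and 1.20 CPM in the series 2 libraries of 6 hr with 0 in that of series 1. The 4 series 2 libraries stood above all of 0 hr, with a log2 fold change of 4.88 ± 0.85 (5.48 without the series 1 library). Mfsd2a passed the low-count filter of the heart fit through these 6 hr libraries, since other times reached at most 0.456 CPM. Its adjusted p of 0.000178 by edgeR is therefore not read as a test of a rise. Levels stayed under 3.5 CPM, far from the 117 to 192 CPM of brain at 0 hr. Slco1c1 in heart rested on 3 to 12 counts per library at 0 hr and 0 to 3 at 6 hr (−1.76 ± 0.65, adjusted p = 0.0337, a call kept in 4 of 10 fits with 1 library left out; −1.95 ± 0.72 without the series 1 library, adjusted p = 0.0244). Slc19a3, at no more than 0.675 CPM in any heart library, was not called at any time.

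**Figure D4:**
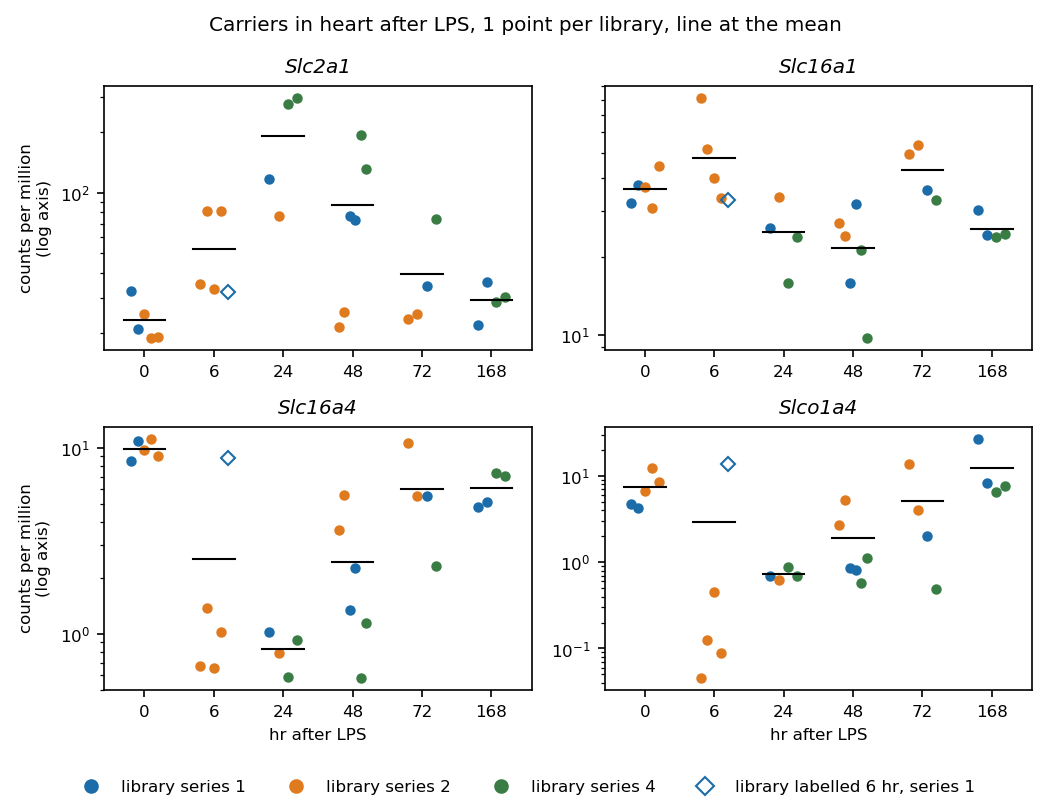
CPM (log axis) of Slc2a1, Slc16a1, Slc16a4 and Slco1a4 in heart libraries by time after LPS (hr), coloured by library series, with an open diamond for the series 1 library labelled 6 hr. The 24 hr points of Slc2a1 run from 76.3 to 297 CPM, above all of 0 hr, while those of Slc16a4 and Slco1a4 lie below.

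Of 6 carriers tested in lung, 1 passed at 6 hr (4.83% of 17058 genes called), and 0 without the series 1 library (3.95% of 17311 genes). This was Slc2a1, with 7.09, 3.41, 2.53 and 14.0 CPM at 0 hr and 21.7, 5.10, 8.15 and 14.1 at 6 hr, groups that overlapped. Its log2 fold change of 2.41 ± 0.65 (adjusted p = 0.0279) was called in 3 of 8 fits that left out 1 library and lost without replicate 1, 2 or 3 of 0 hr or replicate 1 or 4 of 6 hr, with an adjusted p of up to 0.102. Replicate 4 of 6 hr is the shallowest library, of the mouse whose brain and heart libraries went against their label, and without it the log2 fold change was 2.24 (adjusted p = 0.0619). The call was also lost with limma-voom (adjusted p = 0.0811), with no covariate for library series (0.161) and with the replicate block (0.0607). The pan-EC markers in lung summed to 489 to 8502 CPM at 6 hr against 12278 to 28093 CPM at 0 hr, groups that did not overlap, and when libraries were scaled to them the log2 fold change of Slc2a1 was 5.01 ± 0.86 (adjusted p = 0.000533). Under that scaling the median over all lung genes at 6 hr was 1.45, against −0.42 with TMM. The fit kept the shallowest library, which gave the 489 CPM, and the share of genes it called is not given. No carrier passed by edgeR at 24 hr (0.375% of genes called), 48 hr (0.598%), 72 hr (0.193%) or 168 hr (0.0117%). At an unadjusted p under 0.05 there were 1, 2, 1 and 0 members at those times, and DESeq2 and limma-voom called none but 1 at 48 hr with DESeq2. Levels of Slc16a1 in lung went from 5.56 to 26.5 CPM at 0 hr to 0 to 59.0 at 6 hr and 9.80 to 51.5 at 48 hr, and Mfsd2a from 0.714 to 6.27 CPM at 0 hr to 0 to 17.6 at 48 hr. Slc16a4 and Slc19a3 were too low to be tested, and Slco1c1, Slco1a4 and Slc22a8 had at most 14 counts in any lung library, apart from 105 counts of Slco1a4 in 1 library of 72 hr, so a change in them was not detectable at this depth.

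The response of brain was set against that of the other tissues in 1 fit, in which libraries of a mouse count as separate though most mice gave all 3 tissues. Against lung, brain differed for 2 of 8 members at 6 hr (12.6% of 22007 genes), 1 at 24 hr (0.427%), 2 at 48 hr (1.39%), and 0 at 72 hr (0.414%) and 168 hr (0.0818%). Slc2a1 changed in brain by −3.01 ± 0.60 relative to lung at 6 hr (adjusted p = 0.000528) and by −2.46 ± 0.54 at 48 hr (adjusted p = 0.00608), and Slc16a1 by −1.96 ± 0.69 at 6 hr (adjusted p = 0.0498). With limma-voom the last 2 did not pass (adjusted p = 0.0734 for Slc2a1 at 48 hr and 0.126 for Slc16a1). Slc22a8 was also called, at 24 and 48 hr, but every lung library of 0 hr had 0 counts of it, so that its fitted value depends on the prior count. The calls against lung moved with the fit. With the mouse as a block, 1, 4, 4, 0 and 1 members were called over the 5 times in order (9.44%, 2.14%, 2.93%, 0.105% and 9.14% of genes), or 10 in place of 5, and Slc2a1 was called at 6, 24 and 48 hr, but Slc16a1 was not at 6 hr. With limma-voom 6 members were called at 6 hr, where 29.5% of genes were, and of these Slc16a4, Slco1c1, Slco1a4, Slc22a8 and Slc19a3 were not called by edgeR (log2 differences from −6.82 ± 1.31 for Slc16a4 to −4.78 ± 0.97 for Slc19a3), all 5 with few or no counts in lung. Without the 6 hr libraries of series 1, edgeR called 4 members at 6 hr (11.9% of 22125 genes), Slc2a1, Slc16a1, Mfsd2a (−3.05 ± 0.96, adjusted p = 0.0284) and Slc19a3. Of the 8 members, Slc16a4, Slco1c1, Slco1a4, Slc22a8 and Slc19a3 had 0 to 13 counts in all lung libraries of 0 hr together, so their calls against lung rest on the fall in brain and measure nothing in lung. Against heart, brain differed for 2 members at 6 hr (0.795% of genes), 1 at 24 hr (0.0772%), and 0 at 48 hr (0.182%), 72 hr (0.323%) and 168 hr (0%). These were Slc2a1, with −2.12 ± 0.52 at 6 hr (adjusted p = 0.0304) and −2.92 ± 0.59 at 24 hr (adjusted p = 0.0319), and Mfsd2a with −5.95 ± 1.06 at 6 hr (adjusted p = 0.000910). Within series 2 alone the 6 hr differences were −2.16 ± 0.54 for Slc2a1 and −7.06 ± 1.17 for Mfsd2a, and under scaling to pan-EC markers the 24 hr call of Slc2a1 was lost (adjusted p = 0.120). Without the 6 hr libraries of series 1 the same 2 members differed from heart at 6 hr (7.99% of genes), by −2.26 ± 0.52 and −6.92 ± 1.03. Slc16a4 fell in both brain and heart, and the difference between its responses was −0.17 ± 0.91 at 6 hr and 0.34 ± 1.04 at 24 hr, not called.

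Among relatives and partners of the carriers, some also moved in brain. The lactate exporter Slc16a3 (MCT4) rose by 2.54 ± 0.55 at 6 hr (adjusted p = 0.00506), 2.66 ± 0.60 at 24 hr and 2.37 ± 0.54 at 48 hr on the log2 scale, and by 2.96 ± 0.45 at 6 hr without the series 1 library (adjusted p = 3.41e-05). Bsg (basigin), which brings MCT1 to the membrane, fell (−1.80 ± 0.54 at 6 hr, adjusted p = 0.0423; −2.37 ± 0.66 at 24 hr, adjusted p = 0.0225), and at 6 hr without that library by −3.06 ± 0.48 (adjusted p = 5.87e-05). Slc7a5, an amino acid carrier that also takes thyroid hormone, fell at 24 hr (−2.60 ± 0.59, adjusted p = 0.00631), and Dio2, which makes active hormone from thyroxine, rose (1.32 ± 0.43, adjusted p = 0.0459). Slco2b1 was the 1 of 8 other organic anion polypeptides called at 6 hr (−0.97 ± 0.29, adjusted p = 0.0478; −1.24 ± 0.31 without that library, adjusted p = 0.00724), where 2.23% of all genes were lower with all libraries and 6.71% without it. Slc19a2, the other thiamine carrier, did not pass at 24 hr (−0.08 ± 0.23, adjusted p = 0.863), and 0 of 8 genes of its list did at any time after LPS by edgeR with all libraries, where 1 was lower and 1 higher at 6 hr without that library (6.71% and 7.63% of genes).

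Wider lists of barrier and Wnt genes were mostly lower at 6 hr. Of 20 other EC genes of the blood-brain barrier, 12 were called lower and 1 higher at 6 hr, where 2.23% of all genes were lower and 4.21% higher, 14 and 0 at 24 hr (4.66% and 6.52%), 3 and 1 at 48 hr (6.12% and 8.11%), 0 and 2 at 72 hr (0.546% and 2.98%) and none at 168 hr, with a median log2 fold change of −1.13 at 6 hr and −1.49 at 24 hr, where that of the pan-EC markers was −0.63 and −0.13. Without the series 1 library labelled 6 hr, 17 were lower and 1 higher at 6 hr (6.71% and 7.63% of genes), with a median of −1.51. Slc38a5, an amino acid carrier, fell at 24 hr (−3.71 ± 0.83, adjusted p = 0.00610). The tight junction gene Cldn5 was lower at 6 hr without that library (−1.46 ± 0.26, adjusted p = 0.000307 by edgeR), and at 72 hr it rose (1.07 ± 0.27, adjusted p = 0.0251). Of 19 genes of Wnt signalling in brain ECs, which upholds the barrier, 11 were lower at 6 hr, 5 at 24 hr, 5 at 48 hr and none at 72 or 168 hr, and none was higher, against the same shares of all genes. Without that library 14 were lower and 1 higher at 6 hr. The Wnt factor Tcf7 (−1.85 ± 0.35, adjusted p = 0.00168), Sox17 (−1.70 ± 0.34, adjusted p = 0.00252) and the feedback gene Nkd1 (−1.59 ± 0.29, adjusted p = 0.00116) fell most at 6 hr, and without that library by −2.70 ± 0.25, −2.46 ± 0.27 and −2.14 ± 0.26 in turn. Of 14 targets of hypoxia and glycolysis, a program in which Slc2a1 is usually counted, 5 were higher at 6 hr and none lower, with and without that library, with Pfkfb3 at 3.00 ± 0.62 (adjusted p = 0.00336) and Adm at 2.24 ± 0.38 (adjusted p = 0.000530), where Slc2a1 had −0.41. In heart at 6 hr 20.3% of all genes were lower and 22.4% higher, and the barrier list, with 4 lower and 6 higher of 19 tested, was near these shares. The Wnt list in heart had 10 lower and 1 higher of 16, and the hypoxia and glycolysis list 1 lower and 6 higher of 13. Without the series 1 library the barrier list had 7 lower and 6 higher and the Wnt list 13 lower and 1 higher, and the hypoxia and glycolysis list 1 lower and 10 higher, where 30.5% of genes were lower and 27.8% higher.

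Across the 28 brain libraries, with library series removed, the carriers varied together to different degrees. Slco1c1 and Slc19a3 were the most alike (Pearson r of log2 CPM = 0.958), then Slco1c1 and Slc16a4 (0.905) and Slc16a4 and Slc19a3 (0.885). Slc22a8 went with Mfsd2a (0.873) and Slc19a3 (0.866), and Slc16a4 with Slco1a4 (0.861). The least alike were Slc16a1 and Slc22a8 (0.237) and Slco1a4 and Slc22a8 (0.377). These values describe libraries that share their times after LPS, and carry no test. Among 11228 genes, those most like each carrier were Ushbp1 (0.967), Ablim1 and Afap1l2 (0.959 each) for Slco1c1, Kank4 (0.978), Slc38a3 and Ushbp1 for Slc19a3, and Slc40a1 (0.971), Gipc3 and Cav1 for Slc16a4. For Mfsd2a they were Lnx2 (0.952), Palm and Spock2, for Slc22a8 Cmbl (0.973), Ephx1 and Foxp2, and for Slco1a4 Eogt (0.942), AI467606 and Tcf7. Slc2a1 (Mxd4 at 0.854, Nostrin, Ptpn14) and Slc16a1 (Slc39a8 at 0.884, Dram2, Stard4) had the lowest such values, while the median r over all genes lay between 0.0112 and 0.135 for the 8 carriers.

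**Figure D5:**
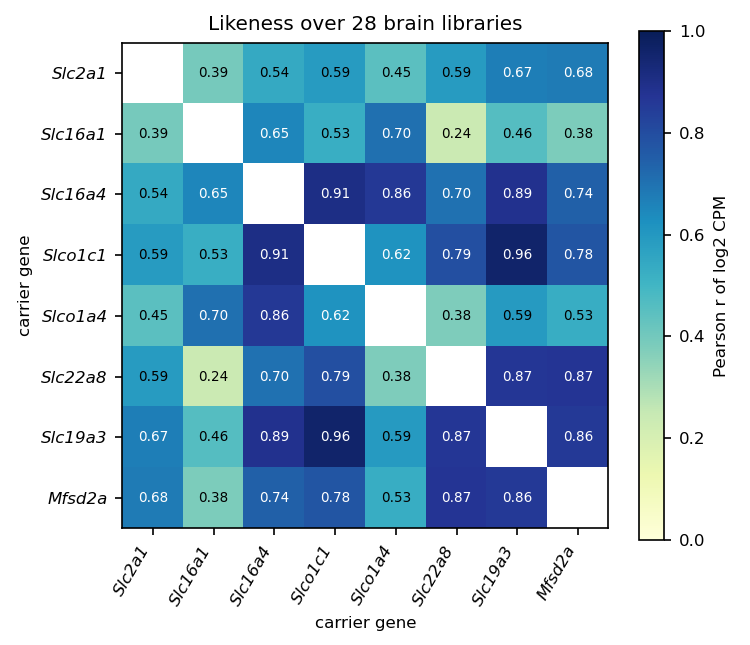
Pearson r of log2 CPM between each pair of carriers over 28 brain libraries after removal of library series, as a heat map. The pairs among Slc16a4, Slco1c1 and Slc19a3 are at 0.885 to 0.958, and the row of Slc16a1 runs from 0.237 with Slc22a8 to 0.705 with Slco1a4.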

How the data were processed

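RNA bound to HA-tagged ribosomes of endothelial cells of RiboTag EC mice was sequenced for 3 tissues, brain, lung and heart. Per the labels and the study's methods, the authors aligned reads to mm10 with STAR 2.4.2 and deposited raw read counts per gene and run from HTSeq 0.6.1; the annotation release and the strand setting are not given in the sources used here. Runs of a library were summed (217 runs, 98 libraries), and 18 libraries with under 3% of reads on genes, 1.73% to 2.75%, were left out. All of these were of library series 3. Rows of reads on no gene stayed out of library sizes and tests. CPM is the count over the library's total on genes, and 3 counts were 0.0912 to 0.415 CPM in brain libraries. Of the gene IDs, 52403 of 52550 matched an annotation without version and 49035 with it. Sequencing batches are not labelled, so library series and mouse come from how the count files are named.

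Counts were tested with edgeR 4.0.16 (quasi-likelihood F test, TMM scaling, filterByExpr, library series as a covariate) in R 4.3.3, with Benjamini-Hochberg adjustment over all genes and a threshold of 0.05. Fits were made per tissue over all times, over the 3 tissues at 0 hr, and over all kept libraries for differences of response. Log2 CPM used a prior count of 2, and likeness was taken over genes whose mean log2 CPM was 3 or more. The 8 carriers were named by symbol, and of the listed genes the 3 largest changes of those called, or genes of known role, were named. The members, the gene lists and several tests were chosen with earlier results of these data known. Alternatives were DESeq2 1.42.0, limma-voom (limma 3.58.1), ComBat (sva 3.50.0) with limma, RLE scaling, scaling to 20 pan-EC markers, no low-count filter, no covariate, a replicate block, a mouse block, other sets of libraries, and leaving out each library. The scripts were tested on simulated counts. No 2 libraries held the same counts within sampling noise. Each mouse was killed at a single time, so same-numbered libraries of different times are not pairs. Correlations of their deviations were over 0.1 for 4 of 20 in brain, 5 of 21 in heart and 10 of 16 in lung, with all 4 at 48 hr in lung. Tissues of a mouse shared an animal. Promoter sequences came from RefSeq (GRCm38.p6). Some results on relatives of the carriers are not reported here.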

Additional observations from a re-analysis of the deposited data

Results flagged for a closer look

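Among 91 groups of 4 to 10 libraries, 6 held a library far from the others of its group by Dixon's test, where chance flags about 1 group in 20, or 4.5 in all. The library labelled 6 hr of series 1, which went against its label, gave 3 of these: Slc19a3 at 53.4 CPM in brain, above the other 6 hr libraries, Slc16a4 at 8.83 CPM in heart, above the others, and Mfsd2a at 0 CPM in heart, below the others. Replicate 5 of lung at 72 hr, of series 4, gave 2, with Slc2a1 at 51.9 CPM and Slco1a4 at 7.11 CPM, both above the other 3 lung libraries. Slc16a1 was at 30.1 CPM in replicate 1 of heart at 168 hr, above the other 3.

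The response to LPS differed between brain and lung by edgeR for Slc2a1 at 6 hr (log2 difference −3.01, adjusted p = 0.000528) and 48 hr (−2.46, adjusted p = 0.00608), for Slc16a1 at 6 hr (−1.96, adjusted p = 0.0498), and for Slc22a8 at 24 hr (−10.50, adjusted p = 0.00246) and 48 hr (−7.72, adjusted p = 0.0293). The 2 values of Slc22a8 depend on the prior count, since lung libraries at 0 hr held 0 counts of it. Between brain and heart it differed for Slc2a1 at 6 hr (−2.12, adjusted p = 0.0304) and 24 hr (−2.92, adjusted p = 0.0319), and for Mfsd2a at 6 hr (−5.95, adjusted p = 0.000910).

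The 6 brain libraries left out for few reads on genes still held Slc2a1, at a median of 32.5 CPM (26.0 to 44.7 CPM, 129 counts in all), above the limit that a count of 0 allows and far below the kept brain libraries.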

How the results depend on the processing

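All 8 carriers were higher in brain at 0 hr in every setting run. The count of members called lower in brain over the 5 times, 11 of 40 tests, was 19 with no low-count filter, 18 with ComBat and limma, 18 without the 6 hr libraries of series 1 and 0 within series 1, and within 1.5 times of 11 elsewhere (8 to 14). That of members higher in brain, 0, was 1 with no low-count filter and 1 with only the time point and 0 hr fitted. Members higher at 168 hr than at 6 or 24 hr, 13 of 16, were 0 within series 1 and 6 with only the times compared fitted. In heart, 4 lower calls were 7 with no filter, 2 with the replicate block and 0 within series 1, and 4 higher calls were 0 within series 1 and 2 with only the time point and 0 hr. In lung, the 1 higher call was 2 with DESeq2, 3 with scaling to pan-EC markers, and 0 with limma-voom, no covariate, the replicate block, all 98 libraries, libraries of at least 1000000 counts, only the time point and 0 hr, within series 1, and without the 6 hr libraries of series 1. The 5 members that differed between lung and heart at 0 hr were 3 within series 1 and 3 with all libraries in 1 fit. The 5 differences of response from lung were 10 with DESeq2, 11 with no filter, 10 with pan-EC scaling, 8 with limma-voom, 14 with ComBat, 10 with the mouse block, 8 without the 6 hr libraries of series 1 and 0 within series 1, and the 3 from heart were 7 with no filter and 0 within series 1. Within series 1, which holds the library against its label, 2 results reversed: Mfsd2a at 6 hr, brain response against heart (2.96), and Slc16a1 at 6 hr in heart (−0.0649). Within series 1, brain had 1 library each at 6, 24 and 72 hr. Except where given above, the share of all genes called in each setting is not given. These counts, and those from leaving out 1 library, are therefore not read as results about the carriers. The causes were not tested.

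Leaving out 1 library gave 6 to 18 lower calls in brain and 0 to 1 higher, 7 to 14 at 168 hr against 6 and 24 hr, 3 to 5 higher and 2 to 6 lower in heart, 0 to 1 higher and 0 lower in lung, 8 at baseline, 5 to 6 between lung and heart, 2 to 3 differences of response from heart and 5 to 9 from lung, the last 2 with limma-voom. Alternatives chosen after seeing the data were the fits without the 6 hr libraries of series 1, the fits within series 1 and within series 2, and the limma-voom fits of responses. The brain count of lower calls was 7, 6 and 7 without replicate 1, 2 or 4 of 0 hr and 18 without replicate 6 of 6 hr, the heart count of lower calls 2 without replicate 1, 3 or 5 of 0 hr or replicate 2 of 24 hr, and the count at 168 hr 8 without replicate 3 or 4 of 6 hr and 7 without replicate 4 or 5 of 168 hr. With the replicate block, 10 of 40 tests were called lower in brain. The correlations of same-numbered libraries ran from −0.686 to 0.446 in brain, −0.222 to 0.246 in heart and −0.233 to 0.736 in lung. In lung at 48 hr all 4 were over 0.1 (0.147 to 0.736), and the block called no member there. Each mouse was killed at a single time, so same-numbered samples of different times share only a number. Scaling to pan-EC markers moved the median log2 fold change of all genes at 6 hr to 0.47 in brain, 1.45 in lung and 0.80 in heart, and in brain to 0.23 at 24 hr, −0.10 at 48 hr and −0.33 at 72 hr, against 0.00, −0.42, −0.05, −0.03, 0.02 and −0.04 with TMM; RLE moved it by over 0.1 in lung, to −0.11 at 6 hr and 0.15 at 168 hr, and in brain between 24 and 168 hr, from 0.13 to 0.02. A prior count of 0.5 in place of 2 moved the log2 levels at 0 hr of Slc16a4, Slc22a8 and Slc19a3 in lung and Mfsd2a in heart, which rest on few counts. Lung depth, down to 284457 counts, limits what could be seen there.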
